A study of Mus musculus with 12 samples.

Results

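The renin-angiotensin system genes described here are 9 genes, Ren1, Agt, Ace, Enpep, Agtr1a, Agtr1b, Agtr2, Agtrap and Atp6ap2, found on the array by their gene symbols among 34796 gene names, with 1 probe each. RNA was measured in the aorta of 12 male C57BL/6J mice aged 11 to 14 weeks, 1 array for each mouse, on day 3 of a model of aortic dissection, to ask how the aortic wall responds before it tears and what rapamycin changes in that response. The model was a continuous infusion of beta-aminopropionitrile (BAPN, 150 mg/kg/day), an inhibitor of collagen crosslinking, together with angiotensin II (AngII, 1 µg/kg/min), which is itself the active peptide of this system. The 4 groups of 3 mice received the vehicle dimethylsulfoxide (DMSO), rapamycin (2 mg/kg/day, an inhibitor of the kinase mTOR), BAPN and AngII with DMSO (BA+DMSO), or BAPN and AngII with rapamycin (BA+rapamycin). No group carried a transgene or deletion, and the infused AngII means that the challenged mice had peptide from outside as well as any of their own. The tissue was the 10 mm of aorta above the branch of the right renal artery. Sample titles mark the DMSO mice as Pre, while the series record places every group at day 3.

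In the renin-angiotensin system, renin cuts angiotensinogen to angiotensin I, and angiotensin-converting enzyme turns that into AngII. AngII acts on AT1 receptors, which constrict vessels and drive growth and inflammation of the vessel wall, and on AT2 receptors, whose actions largely oppose these. Most circulating renin comes from the kidney and most angiotensinogen from the liver, while vascular smooth muscle, endothelium and adventitia carry receptors and converting enzyme. The activity of the system is set by proteins and peptides, which were not measured here.

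The promoters of Ren1, Agt and Agtrap are shown because Ren1 and Agtrap were the members whose RNA passed the test in some comparison and because renin and angiotensinogen are the enzyme and substrate at the head of the pathway. Each is the 250 bases before the annotated start on the gene's strand, in RefSeq on build GRCm38.p6. Ren1 is at chr1:133350424-133350673 on the plus strand, Agt at chr8:124569707-124569956 on the minus strand and Agtrap at chr4:148088065-148088314 on the minus strand. Capitals mark a TATA box (TATAAA) or an E-box (CACGTG), both searched on both strands, and no match overlapped another motif in these 3 sequences.
Ren1: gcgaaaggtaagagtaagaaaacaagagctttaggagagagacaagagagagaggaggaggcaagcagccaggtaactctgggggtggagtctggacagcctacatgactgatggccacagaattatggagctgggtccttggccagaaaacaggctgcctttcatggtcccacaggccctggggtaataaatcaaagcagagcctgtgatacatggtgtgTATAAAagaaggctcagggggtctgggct
Agt: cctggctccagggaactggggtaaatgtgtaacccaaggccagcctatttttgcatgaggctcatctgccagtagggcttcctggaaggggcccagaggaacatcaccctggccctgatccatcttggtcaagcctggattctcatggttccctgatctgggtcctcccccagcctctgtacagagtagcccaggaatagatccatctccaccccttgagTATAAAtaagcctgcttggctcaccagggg
Agtrap: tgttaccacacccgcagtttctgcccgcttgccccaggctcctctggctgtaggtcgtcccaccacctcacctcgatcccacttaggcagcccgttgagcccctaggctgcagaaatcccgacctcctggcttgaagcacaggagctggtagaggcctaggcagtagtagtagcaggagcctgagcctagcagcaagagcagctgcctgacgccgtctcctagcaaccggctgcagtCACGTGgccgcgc
The TATA box began 29 bases before the start in Ren1 and 30 bases before it in Agt, and the E-box of Agtrap began 13 bases before the start. TATAAA was in 5 of 9 promoters matched to 8 of the members, and in 12.4% of 32851 mouse promoters of the same length. CACGTG was in 1 of the 9 and in 6.02% of all. A GC box (GGGCGG, both strands) was in 2 of the 9, those of Ace and Atp6ap2, and in 32.7% of all. No promoter was printed or searched for Agtr1a.

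Values are log2 differences of a probe's processed intensity from the 75th percentile of its array, so 0 is the brightness that 75% of the probes do not exceed, and they are not comparable between genes. Array brightness itself differed between the groups. The 75th percentile was 221 to 279.8 intensity units on the DMSO arrays, 257 to 337 with rapamycin. BA+DMSO arrays had 78.1 to 246 units and BA+rapamycin arrays 74.6 to 109. On single arrays 41.2% to 53.1% of probes were well above background, with no saturated spot. The DMSO arrays were on slide 1, the challenged arrays on slide 2, and the rapamycin arrays on both. The second BA+DMSO array was dimmer than the other 2 of its group, and correlations between the BA+DMSO arrays across probes were 0.912 to 0.961, against 0.974 to 0.993 in the other groups. All 5 smooth muscle markers (Myh11, Acta2, Tagln, Cnn1 and Smtn) were well above background on all 12 arrays. Of 5 kidney markers, 4 (Umod, Slc12a1, Slc34a1 and Kap) were above background on none, and likewise 4 of 5 adrenal cortex markers. Differences in cell composition and in RNA per cell cannot be told apart in such whole-tissue samples.

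Of the 9 genes, 7 were bright enough to test, against 20026 gene names tested in all, and Agt and Agtr2 were not. After the challenge 1 of the 7, Agtrap, was higher at a limma adjusted p under 0.05, while 20.5% of all 27801 probes tested were called in that comparison. Under rapamycin the challenge comparison called 1 of the 7, Ren1, against a background of 41.7%. A gene was tested where all 3 arrays of some group were above background, and Ren1 met this only in BA+rapamycin, the higher group of that comparison, so its count supports nothing about the members. For rapamycin none of the 7 passed the limma test, neither under the challenge, where 0.281% of probes were called, nor alone, where 0.00360% were called. The interaction, which asks whether the effect of rapamycin differed with and without the challenge, called none of the 7 and 0% of all probes in the limma fit. These backgrounds depended on the fit. For the challenge 5697 of the 27801 probes were called, against 15 with slide as a fixed block and 1244 with only the 2 groups fitted. No DMSO array shares a slide with a BA+DMSO array. For the challenge under rapamycin 11602 were called, against 7923 with slide as a fixed block, 3268 within slide 2 and 1786 with array brightness as a covariate. Before adjustment, a p under 0.05 was reached by 2 of the 7 for the challenge and 35.3% of all probes, and by 3 and 51.9% when the challenge came with rapamycin. The same threshold was passed by 1 of the 7 and 4.27% of all probes for rapamycin alone, by 0 and 20.1% for rapamycin under the challenge, and by 1 and 6.12% for the interaction. The groups' arrays did not overlap for 1 of the 7 after the challenge, against 34.6% of all probes, and for 4 of the 7 after the challenge under rapamycin, against 65.9%. The challenge comparison and that of rapamycin alone share the DMSO arrays.

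**Figure D1:**
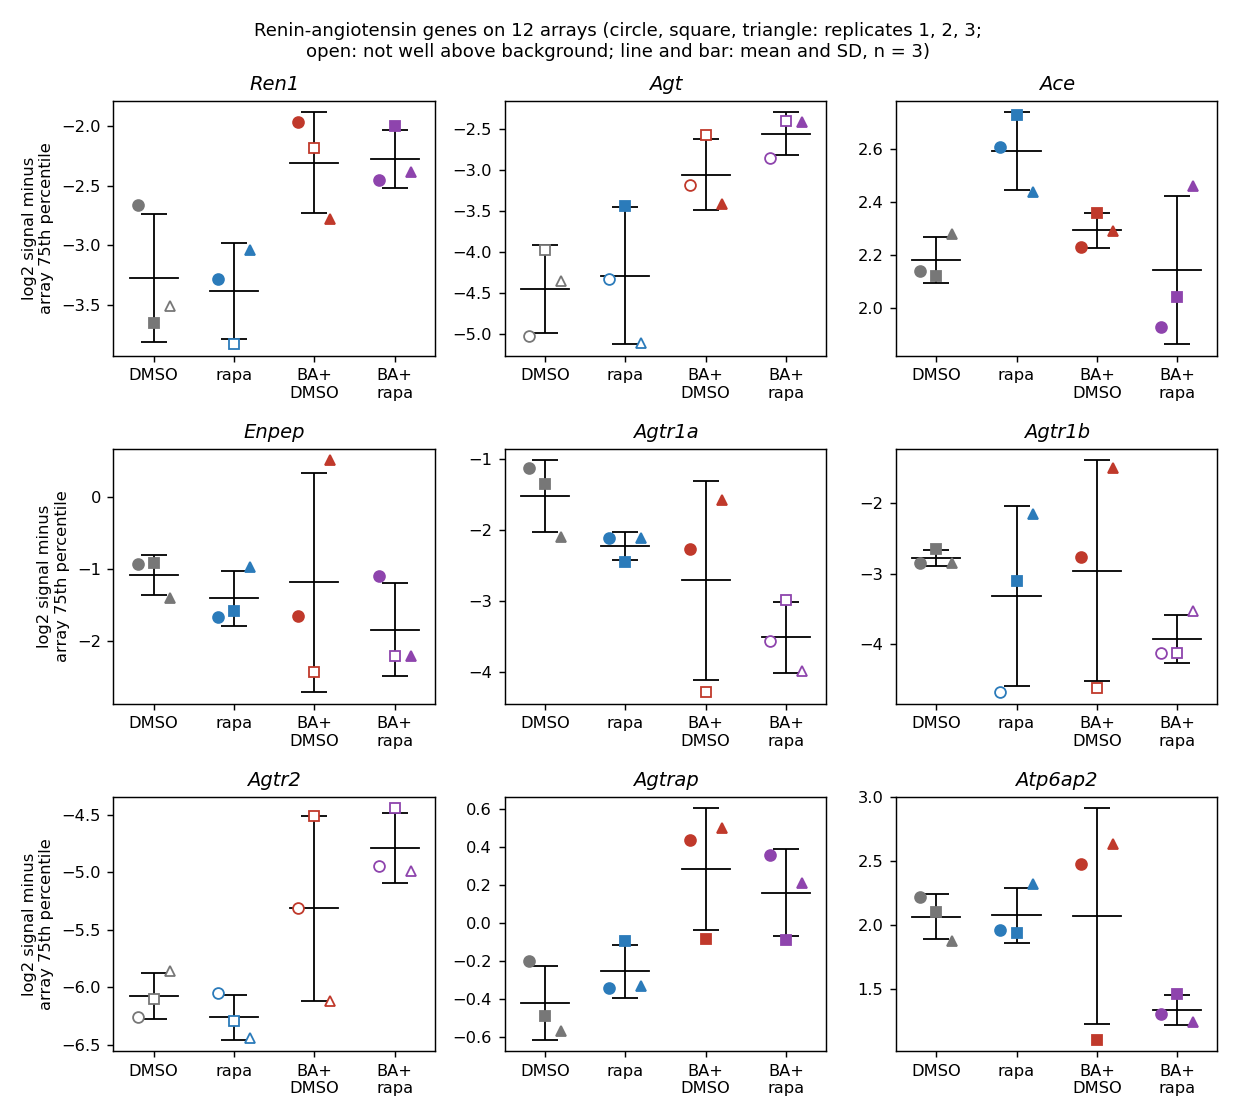
Log2 signal of the 9 genes relative to the 75th percentile of each array (y axis, a scale per gene) in the 4 groups (x axis, where rapa is rapamycin). Symbols are single arrays by replicate number, open where the probe was not well above background, and lines with bars are mean ± SD of 3 arrays. Agtrap was higher on every BA+DMSO array than on any DMSO array, and the second BA+DMSO array (square) was the lowest of its group for Agtr1a, Agtr1b, Agtrap, Atp6ap2 and Enpep.

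Ren1 encodes renin, the enzyme that starts the cascade, and its signal was low and close to background. The log2 values were -2.66, -3.65 and -3.51 on the DMSO arrays, -3.28, -3.83 and -3.04 with rapamycin, -1.96, -2.18 and -2.78 in BA+DMSO, and -2.45, -2.00 and -2.38 in BA+rapamycin. All 3 BA+rapamycin arrays were above all 3 rapamycin arrays, while 1 BA+DMSO array fell below the highest DMSO array. The probe was above background on 2 of 3 arrays in each of the other groups, so BA+rapamycin, the higher group of the pair tested next, alone brought it into the test. Under rapamycin the challenge difference was 1.11 (SE 0.32, 2.15-fold, limma adjusted p = 0.0185, 95% interval 0.41 to 1.80, n = 3 and 3), and with no filter on brightness the adjusted p was 0.0176. Without rapamycin the difference was 0.97 (SE 0.32, adjusted p = 0.0519, 95% interval 0.27 to 1.66), and the interaction was 0.14 (SE 0.45, adjusted p = 0.919). The 2 challenge estimates differed by less than their error, with a 95% interval of -0.84 to 1.12 for the interaction.

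The unscaled intensity of the Ren1 probe did not separate the groups. It was 44.2, 21.2 and 19.4 units on the DMSO arrays, 26.6, 19.0 and 40.9 with rapamycin, 33.8, 17.2 and 35.9 in BA+DMSO and 19.9, 18.7 and 20.7 in BA+rapamycin. The groups overlapped on this unscaled measure, while the brightness used for scaling was lower on most challenged arrays. With array brightness as a covariate the difference under rapamycin was 0.68 (SE 0.55, adjusted p = 0.491), and it was 1.16 (SE 0.37, adjusted p = 0.0424) with slide as a block and 1.16 (adjusted p = 0.0634) among the arrays of slide 2 alone. The call was also lost with quantile normalization (0.70, adjusted p = 0.0633), without the second rapamycin array (0.88, adjusted p = 0.071) and without the second BA+rapamycin array (0.97, adjusted p = 0.0655). It was lost as well with the deposited matrix and with title dates as a random block, a fit given at the end of the text. For the challenge without rapamycin, Ren1 gained a call when the first DMSO array was left out (1.27, adjusted p = 0.0262) or the third BA+DMSO array (1.20, adjusted p = 0.0162), with slide as a random block (0.94, adjusted p = 0.0116) and with normexp correction (0.59, adjusted p = 0.0459). The probe, placed by the array files at chr1:135250782-135250841 on the plus strand of mm9, was well above background on 9 of the 12 arrays. A probe for Ren2, the near-identical second renin gene of some mouse strains, was above background on all 12 although C57BL/6J mice carry a single renin gene. The Ren2 values were -0.015, -2.43 and -1.47 in DMSO and -0.12, -0.63 and -0.40 in BA+DMSO, which overlap. They were -1.76, -2.23 and -1.03 with rapamycin, below all those of BA+rapamycin at -0.79, 0.23 and 0.61. Cross-hybridisation between the renin sequences was not tested. In the challenge under rapamycin all 5 macrophage markers were called higher (median difference 1.43), with a summed level of 112 to 138 times the 75th percentile in rapamycin and 361 to 487 times in BA+rapamycin. The single adrenal cortex marker tested, Cyp21a1, was also called higher (0.95), at -2.58 to -2.26 in rapamycin and -1.91 to -1.21 in BA+rapamycin, while the other 4, Star, Cyp11a1, Cyp11b1 and Hsd3b1, were above background on no array. Their part in the Ren1 result was not tested.

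**Figure D2:**
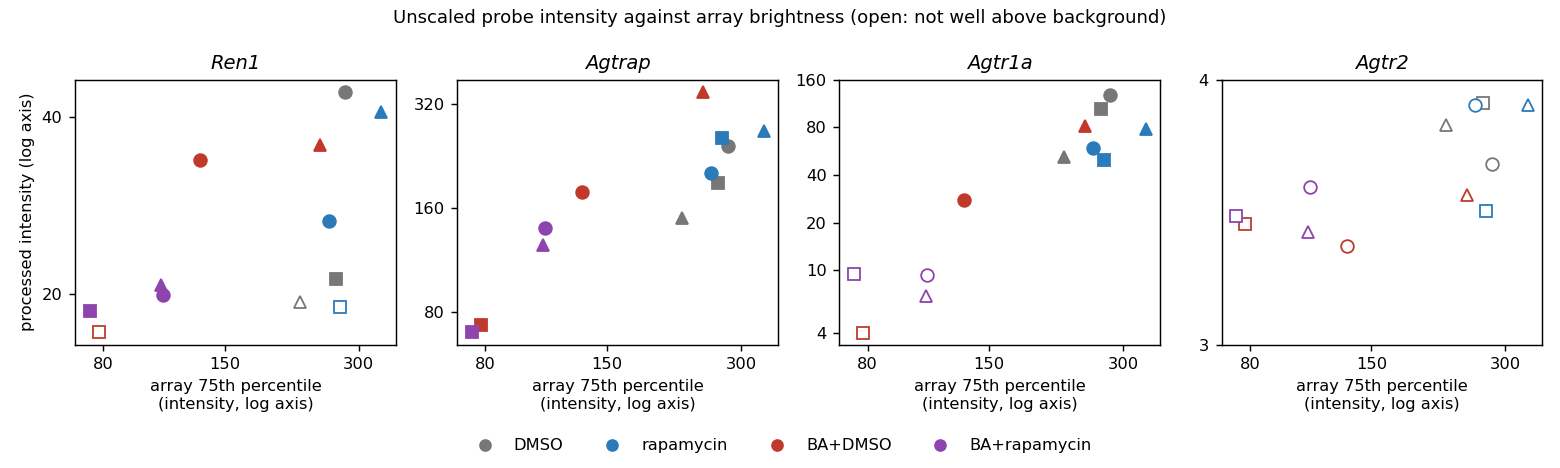
Unscaled processed intensity of 4 probes (y axis, log scale, intensity units) against the 75th percentile of the same array (x axis, log scale, intensity units), 1 symbol per array, coloured by group, with shapes for replicates 1, 2 and 3 (circle, square, triangle) and open where not well above background. Agtr2 stayed between 3.34 and 3.90 units whatever the brightness, while Agtr1a was 4.03 to 27.6 units on the 5 dimmest arrays and 49.8 to 129 on the others.

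Agt, the precursor from which renin releases angiotensin I, was well above background on 3 of the 12 arrays, 1 each in rapamycin, BA+DMSO and BA+rapamycin, and was not tested. Its unscaled intensity was 8.54, 17.0 and 10.8 units on the DMSO arrays and 14.5, 13.0 and 23.1 in BA+DMSO. In the rapamycin group it was 12.8, 25.0 and 9.80 units, and in BA+rapamycin 15.1, 14.1 and 20.1. These ranges overlap, so no order between the groups could be read from them. Relative to the 75th percentile, the means were -4.46 ± 0.54 (SD, n = 3) in DMSO and -3.06 ± 0.43 in BA+DMSO. No DMSO array and 1 of 3 BA+DMSO arrays measured Agt above background, so no fold is given.

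Ace encodes angiotensin-converting enzyme, which makes AngII and breaks down bradykinin, and its probe was well above background on every array. The values were 2.14, 2.12 and 2.28 in DMSO, 2.61, 2.73 and 2.44 with rapamycin, 2.23, 2.36 and 2.29 in BA+DMSO and 1.93, 2.04 and 2.46 in BA+rapamycin. All rapamycin arrays were above all DMSO arrays, by 0.42 (SE 0.17) on average, but this did not pass the test (limma adjusted p = 1). Of the 7 tested members, 2 did not overlap in this comparison, the other being Agtr1a, which was lower with rapamycin. The share of all probes without overlap was not counted for rapamycin alone. After the challenge Ace differed by 0.11 (SE 0.17, adjusted p = 0.675, 95% interval -0.27 to 0.49). Under rapamycin the challenge difference was -0.45 (SE 0.17, adjusted p = 0.0557), with the third BA+rapamycin array inside the rapamycin range. It passed the threshold without the second BA+DMSO array (adjusted p = 0.0309), without the third one (adjusted p = 0.0447) and without the third BA+rapamycin array (-0.61, adjusted p = 0.0283). The same holds with normexp correction (-0.74, SE 0.16, adjusted p = 0.00334) and with the test limited to probes above background on all arrays (-0.45, adjusted p = 0.041). The interaction for Ace was -0.57 (SE 0.24, adjusted p = 0.737).

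Enpep encodes aminopeptidase A, which trims AngII to angiotensin III. Its values were -0.93, -0.91 and -1.40 in DMSO and -1.67, -1.59 and -0.97 with rapamycin. In BA+DMSO they were far more spread, at -1.65, -2.43 and 0.52 (SD 1.53). In BA+rapamycin they were -1.10, -2.22 and -2.21 (SD 0.64, against 0.38 with rapamycin). The second array of each challenged group was not well above background. All 4 comparisons between groups were uncalled, with differences from -0.66 to -0.10 and limma adjusted p from 0.502 to 1. The 95% interval for the challenge, -1.45 to 1.25, leaves room for more than 2-fold in either direction. Without the second BA+DMSO array the challenge difference was 0.52 (adjusted p = 0.541), and without the third it was -0.96 (adjusted p = 0.0741). Rapamycin under the challenge gave -1.28 (adjusted p = 0.0995) without the second BA+DMSO array and 0.20 (adjusted p = 0.901) without the third. With array brightness as a covariate the challenge difference turned to 1.44 (SE 0.35, adjusted p = 0.0218), and that under rapamycin turned from -0.43 to 2.27 (SE 0.48, adjusted p = 0.0275).

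Agtr1a encodes the main AT1 receptor of rodent vessels, and its level was highest in the DMSO group. The values were -1.12, -1.35 and -2.09 in DMSO, -2.11, -2.45 and -2.11 with rapamycin, -2.26, -4.28 and -1.58 in BA+DMSO and -3.56, -2.99 and -3.98 in BA+rapamycin. The probe was well above background on all 6 unchallenged arrays, on 2 of 3 BA+DMSO arrays and on none of the BA+rapamycin arrays. It passed the filter through the DMSO and rapamycin groups alone, which are the higher groups of both challenge comparisons. Any call of it as lower after the challenge therefore rests on that filter. Every BA+rapamycin array lay below every rapamycin array, while the BA+DMSO arrays overlapped with DMSO. The order of the means was DMSO, rapamycin, BA+DMSO and BA+rapamycin, and no neighbouring pair in it differed at an adjusted p under 0.05, the pair of rapamycin and BA+DMSO being untested.

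The challenge difference of Agtr1a was -1.19 (SE 0.57, limma adjusted p = 0.159, 95% interval -2.43 to 0.056). Under rapamycin the adjusted p was 0.0876, and because no BA+rapamycin array measured the probe above background the difference is a bound, at least 1.39-fold lower. The interaction, which draws on the same arrays, was uncalled (adjusted p = 0.971). Leaving out the third BA+DMSO array brought both challenge differences past the threshold, that without rapamycin at -1.75 (adjusted p = 0.0267) and the other at an adjusted p of 0.0445. Leaving out the second BA+DMSO array took the challenge difference to -0.40 (adjusted p = 0.434) and the one under rapamycin to an adjusted p of 0.00734. With array brightness as a covariate the challenge difference was -0.075 (SE 0.55, adjusted p = 0.934), and the one under rapamycin had an adjusted p of 0.622. The challenge difference was -0.050 (SE 0.16, adjusted p = 0.822) with normexp correction. With slide as a random block (estimated correlation -0.13) and all arrays kept, the challenge difference passed the threshold at -1.22 (SE 0.43, adjusted p = 0.046). With title dates as a random block it did not (-1.33, SE 0.58, adjusted p = 0.13), while the one under rapamycin did. The lower means of Agtr1a after the challenge therefore did not pass the test in the main fit. The call depended on the block and on single arrays, and the size of the difference on single arrays, brightness and background correction.

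Agtr1b encodes the other rodent AT1 receptor, which in many tissues is the minor form. The values were -2.85, -2.65 and -2.85 in DMSO, -4.68, -3.11 and -2.16 with rapamycin, -2.76, -4.62 and -1.50 in BA+DMSO and -4.12, -4.12 and -3.53 in BA+rapamycin. The DMSO arrays were close together, and the BA+DMSO arrays spanned a wider range than any other group. Like Agtr1a, it was above background on none of the BA+rapamycin arrays and on 2 of 3 in BA+DMSO. It passed the filter through the DMSO group alone. The challenge difference was -0.18 (SE 0.73, adjusted p = 0.886) and that under rapamycin was uncalled (adjusted p = 0.516). No BA+rapamycin array measured the probe. The rapamycin mean did not exceed the lowest signal above background on those arrays, so no bound is given. The challenge difference was 1.47 (SE 0.57, adjusted p = 0.101) with array brightness as a covariate and -2.23 (SE 1.13, adjusted p = 0.513) with slide as a fixed block, so its direction was not settled.

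Agtr2 encodes the AT2 receptor, abundant in the fetus and scarce in the adult vessel wall. Its probe was not well above background on any of the 12 arrays, and its unscaled intensity stayed between 3.34 and 3.90 units. Relative to the 75th percentile the same signal gave means of -6.07 in DMSO and -6.26 with rapamycin, and the challenged groups had -5.31 (BA+DMSO) and -4.79 (BA+rapamycin). The scaled values were thus higher where the arrays were dimmer, and no fold is given for a probe at background in every group. Among receptors, the array thus measured both AT1 forms in unchallenged aorta and did not measure AT2.

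Agtrap encodes a membrane protein that binds the tail of the AT1 receptor and promotes its internalisation, and it was the one member called higher after the challenge. Its probe is placed at chr4:147454431-147454490 on the minus strand of mm9 and was well above background on every array. The values were -0.20, -0.49 and -0.57 in DMSO, -0.34, -0.092 and -0.33 with rapamycin, 0.44, -0.083 and 0.50 in BA+DMSO and 0.36, -0.091 and 0.21 in BA+rapamycin. Every BA+DMSO array was above every DMSO array on this scale. The unscaled intensity was 243, 189.7 and 149.6 units in DMSO and 179, 73.7 and 348 in BA+DMSO, which overlap. On the scaled values the rise was 0.70 (SE 0.20, 1.63-fold, limma adjusted p = 0.0339, 95% interval 0.25 to 1.15, n = 3 and 3). Under rapamycin the challenge difference was 0.41 (SE 0.20, adjusted p = 0.123), with the lowest BA+rapamycin array just above the highest rapamycin array. Rapamycin under the challenge gave -0.12 (SE 0.20, adjusted p = 0.705, 95% interval -0.58 to 0.33), and the interaction was -0.29 (SE 0.29, adjusted p = 0.749).

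The Agtrap rise kept its direction in all 23 alternatives, at 0.57 to 1.04, and its call in 14. With slide as a block it was 0.58 (SE 0.39, adjusted p = 0.621), an estimate that rests on the rapamycin arrays because DMSO and BA+DMSO share no slide, so slide and challenge cannot be told apart within this pair. With array brightness as a covariate it was 1.04 (SE 0.19, adjusted p = 0.00724), and with only the 2 groups fitted 0.70 (adjusted p = 0.147). Leaving out a single array ended the call at an adjusted p of 0.121 and 0.112 without the second and the third DMSO array, 0.0529 and 0.0517 without the first and the third rapamycin array, and 0.105 and 0.05 without the first and the third BA+DMSO array. Without the second BA+DMSO array it was 0.89 (adjusted p = 0.00581). Macrophage markers moved with it. Of 5, 4 were called higher after the challenge (median difference 1.79), and their summed level was 106 to 137 times the 75th percentile in DMSO and 165 to 478 times in BA+DMSO, with all 5 above background on every array. In the same comparison 2 of 6 endothelial, 1 of 5 fibroblast and 1 of 3 tested brown adipocyte markers were called higher, and 1 of 5 pericyte markers lower. The part of all these markers in the Agtrap result was not tested. Of the other genes ranked, Tmem176b, Ubtd1 and Lamb1 had the patterns most like that of Agtrap over the 12 arrays, with Pearson r of 0.972, 0.962 and 0.958. Names that begin like transcript, clone or predicted-gene identifiers were left out of this ranking, which describes arrays that share groups and slides.

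Atp6ap2 encodes the (pro)renin receptor, which binds renin and prorenin and is also an accessory subunit of the V-ATPase, the proton pump of lysosomes. The values were 2.22, 2.10 and 1.87 in DMSO, 1.96, 1.94 and 2.32 with rapamycin, 2.48, 1.10 and 2.63 in BA+DMSO and 1.30, 1.46 and 1.24 in BA+rapamycin. All BA+rapamycin arrays were below all DMSO and rapamycin arrays, and below 2 of 3 BA+DMSO arrays. The challenge difference was 0.0057 (SE 0.34, limma adjusted p = 0.992, 95% interval -0.73 to 0.75). Under rapamycin it was -0.74 (SE 0.34, adjusted p = 0.0979), and rapamycin under the challenge gave -0.74 (SE 0.34, adjusted p = 0.25). With array brightness as a covariate the challenge difference was 0.69 (SE 0.29, adjusted p = 0.122), and the one under rapamycin turned to 0.47 (SE 0.40, adjusted p = 0.504). Leaving out the second BA+DMSO array took the challenge difference to 0.49 (adjusted p = 0.055), and leaving out the third took it to -0.27 (adjusted p = 0.537). The challenge difference under rapamycin was called in 3 of 24 alternatives, with a lowest adjusted p of 0.00283.

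The second BA+DMSO array changed which members were called for rapamycin under the challenge. Without it, 3 of the 7 were called lower with rapamycin. Atp6ap2 differed by -1.22 (SE 0.17, adjusted p = 0.00251). Agtr1a (adjusted p = 0.00916) and Agtr1b (adjusted p = 0.0455) were above background on no BA+rapamycin array, so they have bounds, at least 1.71-fold and at least 1.48-fold lower. In that fit 39.9% of all probes were called, against 0.281% with the array, so the share of members was close to that of all probes. The interaction for Atp6ap2 was then -1.23 (SE 0.22, adjusted p = 0.0307), with 3058 of the 27801 probes called. The challenge under rapamycin then called 5 of the 7 (Agtr1a, Ace, Ren1, Agtrap and Atp6ap2), against 56.9% of all probes, and the challenge called 1, Agtrap, against 27.2%. Agtr1a passed the filter through unchallenged groups alone and Ren1 through BA+rapamycin alone, so their places among the 5 rest on that filter. This array had the second lowest brightness of the 12 at 78.1 units, and its members' values lay near those of the BA+rapamycin group, whose brightness was 74.6 to 109. With array brightness as a covariate and all arrays kept, Atp6ap2 differed by -0.35 (SE 0.25, adjusted p = 0.578) for rapamycin under the challenge.

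**Figure D3:**
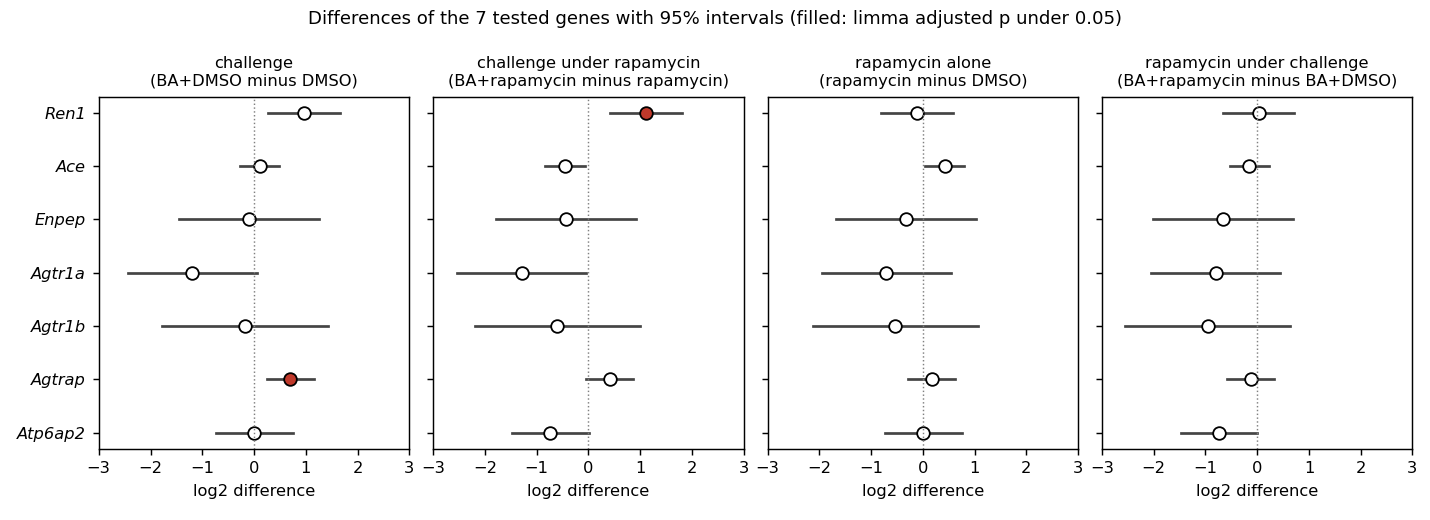
Log2 differences between groups (x axis, first group minus second) for the 7 tested genes (y axis) in 4 comparisons, as limma estimates with 95% intervals, n = 3 arrays a group. Filled points had an adjusted p under 0.05, which were Agtrap for the challenge and Ren1 for the challenge under rapamycin, and the intervals of Agtr1a, Agtr1b and Enpep were wider than the others. Agtr1a and Agtr1b were above background on no BA+rapamycin array, so their points against that group are fitted values and not measured differences.

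Some members varied together and others did not. Over the 12 arrays Agtr1a, Agtr1b, Atp6ap2 and Enpep had pairwise Pearson r from 0.65 (Agtr1a with Agtr1b) to 0.87 (Agtr1a with Atp6ap2), and Ren1 with Agtrap had 0.62. The lowest values were -0.51 for Agtr1a with Ren1 and -0.47 for Ace with Ren1. These values describe arrays that share groups, slides and brightness. The median difference of the 7 tested members was 0.0057 for the challenge, against -0.045 over all probes, and ran from -0.27 (without the third BA+DMSO array) to 0.72 (brightness as a covariate) over the alternatives, with 0.52 without the second BA+DMSO array. For the challenge under rapamycin it was -0.45 against -0.085, and 0.68 with brightness, 0.30 with normexp correction and -0.21 without the third rapamycin array. For rapamycin under the challenge it was -0.66 against -0.0096, and -1.22 without the second BA+DMSO array, -0.21 without the third and -0.11 with brightness. For rapamycin alone it was -0.11 against -0.0052, and ran from -0.28 (without the third rapamycin array) to 0.086 (without the first DMSO array). For the interaction it was -0.33 against -0.033, and ran from -0.88 (without the second BA+DMSO array) to -0.038 (brightness), with -0.096 without the third BA+DMSO array. Every median that draws on BA+rapamycin holds Agtr1a and Agtr1b, which that group had below background, and single arrays changed each of the 5 medians by over 1.5 times.

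The genes around the pathway were taken from lists of its targets, partners and related peptidases. Of 12 AngII-responsive genes, 4 rose and 3 fell after the challenge, where 20.5% of all probes were called. As for every list here, that comparison sets slide 1 against slide 2, and 15 probes of all were called with slide as a fixed block. Spp1, which encodes the matrix cytokine osteopontin, was at least 24.4-fold higher in BA+DMSO than in DMSO (limma adjusted p = 0.00147), and the chemokine gene Ccl2 rose by 5.17 (SE 0.72, adjusted p = 0.00118). The cytokine gene Il6 was at least 13.0-fold higher (adjusted p = 0.0135), with 2 of 3 BA+DMSO arrays above background and values that spread by 3.35 (SD). Fos, an immediate early transcription factor, fell by 3.39 (SE 0.62, adjusted p = 0.00451). Under rapamycin 5 of the 12 rose and 2 fell, against 41.7% of all probes called. Il6 was called at least 104-fold higher (adjusted p = 0.000967) and Spp1 at least 43.4-fold (adjusted p = 0.000459). Both probes were above background on no unchallenged array and passed the filter through challenged groups alone, Il6 through BA+rapamycin and Spp1 through both, so these 2 of the 4 and of the 5 higher genes could only be tested because they were high after the challenge. Macrophage markers were higher beside these genes, 4 of 5 after the challenge and all 5 when rapamycin was given as well, with the summed levels given above, and their part in the list's result was not tested.

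Among 18 signalling partners of the AT1 and AT2 receptors, 6 fell and 1 rose after the challenge, beside the 20.5% of all probes called. Rgs5, a brake on G protein signalling in mural cells, fell by 2.58 (SE 0.39, adjusted p = 0.00192). Mtus1, which encodes an AT2 interacting protein, fell by 1.76 (SE 0.21, adjusted p = 0.00065) on its brightest probe, with 2 of its 3 tested probes called. The brightest probe of the phospholipase gene Plcb4 fell by 1.24 (SE 0.25, adjusted p = 0.00664), and it was the one probe called of the 4 tested for that gene. Arrb2, which encodes an arrestin that desensitises such receptors, rose by 1.14 (SE 0.22, adjusted p = 0.00571). Under rapamycin 8 of the 18 fell, with Rgs5 at -2.66 and Mtus1 at -2.29, and 2 rose, beside 41.7% of all probes called. The pericyte markers as a list had 1 of 5 lower and none higher after the challenge, and 1 lower and 2 higher under rapamycin, and their part in the Rgs5 result was not tested, nor that of the macrophage markers, higher for 4 of 5 and 5 of 5.

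Of 16 other angiotensin peptidases and receptors, 11 were tested and 2 rose after the challenge, a share near the 20.5% of all probes. Both are peptidases that cut angiotensins, Nln higher by 0.87 (SE 0.26, adjusted p = 0.0387) and Rnpep by 0.66 (SE 0.17, adjusted p = 0.0201). Under rapamycin, where 41.7% of all probes were called, none of the 11 rose and 2 were lower, Lnpep by -0.82 (SE 0.25, adjusted p = 0.0231) and Mme (adjusted p = 0.0357), which was above background on no BA+rapamycin array. Mme passed the filter through the rapamycin group alone, the higher one of this pair, so 1 of the 2 rests on that filter. Of 8 kallikrein-kinin genes, whose peptides Ace degrades, 4 were tested and 3 rose after the challenge (20.5% of all probes called), Kng1, the kininogen precursor, by 2.60 (SE 0.33, adjusted p = 0.000788), the carboxypeptidase gene Cpm by 0.90 (SE 0.18, adjusted p = 0.0066) and the kinin receptor gene Bdkrb1 (adjusted p = 0.00077), for which 1 of 3 BA+DMSO arrays and no DMSO array was above background, so no fold is given. Under rapamycin (41.7% of all probes called) 2 of the 4 were called higher, Kng1 by 2.94 (SE 0.33) and Bdkrb1 by at least 5.39-fold, and 1 fell. Bdkrb1 passed the filter through BA+rapamycin alone, its highest group, so its place in both counts rests on that filter. Beside these lists, after the challenge 4 of 5 macrophage and 2 of 6 endothelial markers were called higher, the endothelial ones with a summed level of 52.3 to 66.0 times the 75th percentile in DMSO and 79.4 to 101 times in BA+DMSO. With rapamycin given as well, all 5 macrophage markers were higher, and 1 endothelial marker was higher and 2 lower. The part of these markers in the 2 lists was not tested.

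The V-ATPase is the pump that Atp6ap2 belongs to. Of its 16 other subunit genes, 1 rose and 1 fell after the challenge (Atp6v0a2 by 0.56 and Atp6v0e2 by -0.93), against 20.5% of all probes called, while under rapamycin 10 fell and none rose, against 41.7% of all probes called. The median difference of the list was -0.93 in that comparison, beside -0.74 for Atp6ap2, and Atp6v1a fell by 1.67 (SE 0.35, adjusted p = 0.00501) and Atp6v0e2 by 1.37 (SE 0.18, adjusted p = 0.000522). The BA+rapamycin arrays were dimmer than the rapamycin arrays. With array brightness as a covariate 1786 of all probes were called there, and the Atp6ap2 difference turned to 0.47. No list was counted in that fit. In the same comparison all 5 macrophage markers were higher and 2 of 3 tested brown adipocyte markers lower, the latter with a summed level of 15.9 to 18.5 times the 75th percentile in rapamycin and 1.47 to 5.73 times in BA+rapamycin and with Elovl3 above background on no array. Their part in the V-ATPase result was not tested. Rapamycin under the challenge called none of the 16 with all arrays, and without the second BA+DMSO array it called 13 lower and 1 higher, in a fit that called 39.9% of all probes. In that comparison none of the genes of the other 4 lists was called with all arrays, and rapamycin alone called none of any list at a limma adjusted p under 0.05. Without the second BA+DMSO array, rapamycin under the challenge called 4 peptidase and receptor genes lower, 4 signalling partners lower and 1 higher, and 1 gene higher in each of the kallikrein-kinin and AngII-responsive lists. The AngII-responsive genes then had 6 higher and 3 lower after the challenge, with 27.2% of all probes called, and 8 higher and 2 lower in the challenge under rapamycin, with 56.9% called. In the latter 4 peptidase and receptor genes were higher and 2 lower, and 14 V-ATPase genes were lower and 1 higher.

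**Figure D4:**
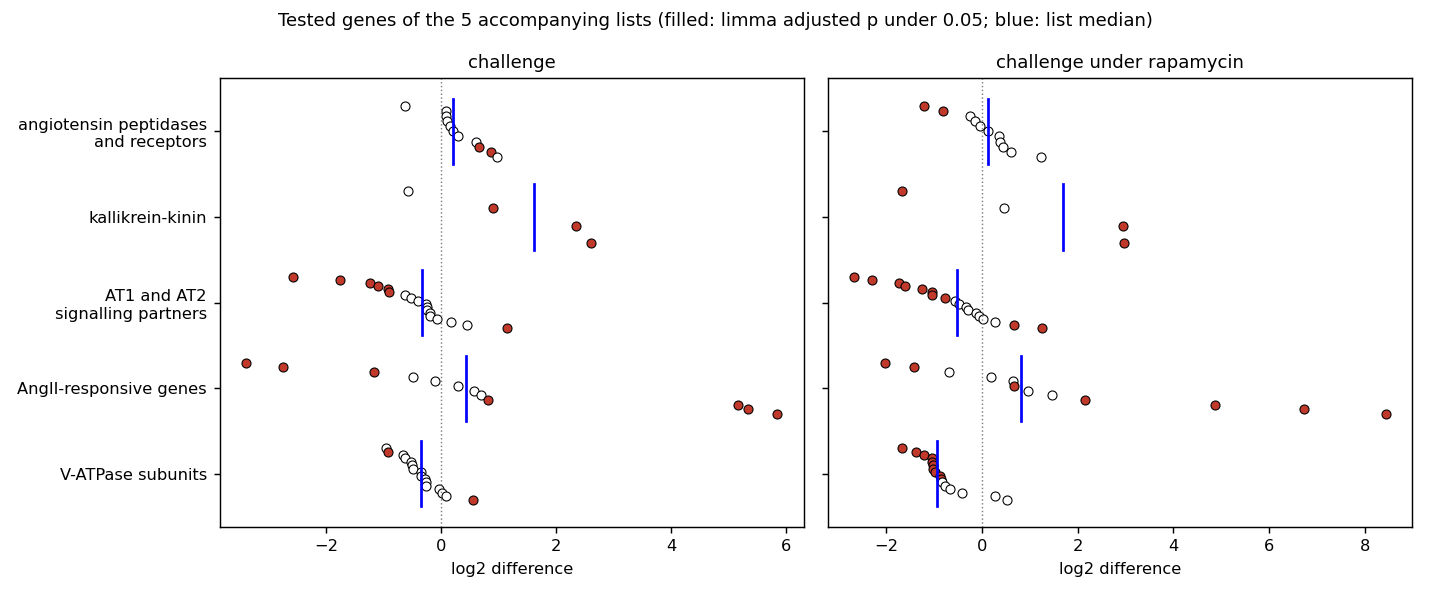
Log2 differences (x axis) of the tested genes of 5 accompanying lists (y axis, 1 point per gene, stacked for visibility) for the challenge (left) and the challenge under rapamycin (right). Filled points had a limma adjusted p under 0.05 and blue lines are list medians, which for the V-ATPase subunits were -0.35 on the left and -0.93 on the right.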

How the data were processed

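RNA from the aortas of 12 mice was labelled with Cy3 by the authors and hybridised to 2 slides of Agilent mouse arrays with 1 colour. The deposited scanner files hold, per the file headers, background-subtracted and detrended processed intensity (linear, with no normalization between arrays) from Feature Extraction 10.7.1.1 (the submitters' processing notes name 9.5.1.1), with probe positions on mm9. The other deposited columns are flags of 0 or 1 for spots well above background, saturated or outlying. A deposited matrix holds intensities whose log2 values correlated with those of a quantile normalization of the processed signal (Pearson r = 1.00000 across probes). Calls differed slightly, with 5451 probes called for the challenge from the matrix and 5449 from the quantile normalization. The method of the matrix is not given in the sources used here.

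Spots with an outlier flag and 3671 control spots were left out, spots of a probe were averaged on the log2 scale and the 75th percentile of each array was subtracted. Tests covered the 27801 of 55681 probes with 0.5 or more of their spots well above background on each of the 3 arrays of any group. A single limma model (version 3.58.1) was fitted to the 12 arrays with group means in R 4.3.3 (files read with data.table, version 1.17.8), two-sided, with Benjamini-Hochberg adjustment over all tested probes and a call at an adjusted p under 0.05. The code was tested on simulated data. Compared were BA+DMSO with DMSO (the challenge), BA+rapamycin with rapamycin (the challenge under rapamycin), rapamycin with DMSO (rapamycin alone), BA+rapamycin with BA+DMSO (rapamycin under the challenge), and the last of these minus rapamycin alone (the interaction). A probe above background on no array of a group has only a bound there, computed against the lowest signal above background.

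All 9 members are named. Of each accompanying list, the called genes with the largest change are named, up to 4 for the challenge and 2 for each other comparison. For a member called in the challenge, the 3 genes most alike by Pearson r are named, leaving out names that begin like transcript, clone or predicted-gene identifiers. The members and lists were chosen with earlier results of these data known. Groups came from the treatment labels, and replicates are numbered in order of deposition. Each array is 1 mouse, and none of the 66 pairs of arrays held identical values. The number of arrays limits the precision. Promoters are from RefSeq (GRCm38.p6). Alternatives varied the scaling, background correction, source of values, filter, samples fitted, slide, date, brightness and call rule, and left out each array.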

Additional observations from a re-analysis of the deposited data

How the results depend on the processing

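With 3 arrays a group, several genes close to background, and slide and brightness tied to the challenge, the calls on single members depended on the setting. Over 35 member differences and 792 refits, 690 kept direction and call, 16 lost a call, 25 gained one, 3 reversed and 58 changed sign while uncalled. The 3 that reversed were Enpep with array brightness as a covariate (1.44 in the challenge, 2.27 in the challenge under rapamycin) and Agtr1b with normexp correction (0.58 for the challenge under rapamycin, where no BA+rapamycin array was above background, so neither sign is read), and the cause was not tested.

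For the challenge 1 member was called in the main fit. The count was 0 with no filter (9 members tested, 7.65% of all probes called) and with only the 2 groups fitted (4.47%). It was also 0 with slide as a fixed block (0.0540%) and with the threshold of the study's methods (2.51%). That threshold is a fold over 4 or below 0.25 with p under 0.01 before adjustment. The count was 2 with normexp correction (23.7%) and with brightness as a covariate (18.3%), and 3 with slide as a random block (36.9%). Leaving out single arrays gave 0 to 2. For rapamycin under the challenge it gave 0 to 3, and for the interaction 0 to 1, against 0 with all arrays. For the challenge under rapamycin 1 member was called in the main fit. The count was 0 with quantile normalization and with the deposited matrix (41.2% of all probes called in each). Within slide 2, an alternative chosen after seeing the data, it was 0 (11.8%), and also 0 with the threshold of the study's methods (5.14%). It was 2 with the percentile over detected probes (41.4%), 3 with no filter (53.3%) and with only the 2 groups fitted (56.4%), and 5 with normexp correction (62.4%). Leaving out single arrays gave 0 to 5, with 23.5% to 56.9% of all probes called. Rapamycin alone called 0 members under all 25 alternatives. Each member has 1 probe, so counting any probe of a gene gave the same counts. With no filter the median of all probes moved to 0.43 in the challenge, and to 0.85 where rapamycin was given as well. The cause was not tested.

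No paired analysis was possible because the replicate numbers follow the order of deposition and the numbers in the titles are not shared by all groups, so they pair no animals. Dates in the titles, of which some are shared between groups, were fitted as a random block (correlation 0.50). That moved the probes called for rapamycin under the challenge from 78 to 458, with 0 members called in both fits, and for the challenge under rapamycin it ended the Ren1 call (0.75, limma adjusted p = 0.0979) and gave Agtr1a one (adjusted p = 0.0421).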
